A study of Homo sapiens with 12 samples.

Results

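The genes described here encode the proteins of the cytosolic ribosome. They were taken by symbol, as the rows whose full name is RPL or RPS with a number and, for some, the letter A, X, L or AL, together with RPLP0, RPLP1, RPLP2 and RPSA. This gave 82 of the 60660 genes in the tables, 50 named for the large subunit and 32 for the small one, and the 1260 pseudogene rows that carry a member's name were left out. Expression was measured by mRNA sequencing in 2 human PCa cell lines, LNCaP, a line from a lymph node metastasis, and 22Rv1, a line grown out of a relapsed xenograft. The study chose both as lines that respond to androgen deprivation. Each line was transfected with NC-mimic, a control RNA, or with piR-4447944 mimic, a synthetic copy of a PIWI-interacting RNA, and all cells were kept in androgen-deprived medium with 10% CS-FBS. The 4 groups, LNCaP with NC-mimic, LNCaP with piR-4447944 mimic, 22Rv1 with NC-mimic and 22Rv1 with piR-4447944 mimic, hold 3 libraries each. Each line stands for a single tumor, and nothing in the labels says whether the libraries of a group came from separate cultures, so the p-values measure the spread between these libraries, which may be technical.

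A cytosolic ribosome is built from a small subunit, which reads the mRNA, and a large subunit, which joins amino acids, and nearly every one of its proteins is made from a single gene whose product is used in equal numbers. A few genes have a paralog with a narrower range of tissues, among them RPL3L in muscle and RPL10L and RPL39L in testis. Messages of ribosomal proteins typically start with a C in a short run of pyrimidines, the 5′ terminal oligopyrimidine (TOP) motif, through which growth signals of the mTORC1 kinase control their translation, a step that mRNA levels do not show.

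The start sequences show how regular this family is. RefSeq promoters (GRCh38.p14) were found for 65 of the 82 members. A start base C followed without a break by at least 4 bases that are each C or T was present in 46 of the 65 (70.8%), against 1404 of 27305 promoters of all genes (5.14%) and 6 of 69 genes of the mitochondrial ribosome (8.70%). The search covered the sense strand at the annotated start only, and a gene with several annotated starts was counted by the one with the longest run. The windows below hold 10 bases before the start and 15 from it, 5′ to 3′, with the unbroken run that begins with C in capitals. Those of RPS19, RPL21, RPL29 and RPL35 are shown because these genes differed most between the lines among the abundant members, and those of RPL11, RPL38, RPS29, RPS15, RPL36AL and RPL10L because the comparisons of the mimic or of paralogs turn on them.
RPS19, chr19:41860245-41860269, + strand: ccccgtcgttCCCTTTCCCCTggct
RPL21, chr13:27251548-27251572, + strand: ccgcctctttCCTTTCggccggaac
RPL29, chr3:51995881-51995905, - strand: cagcccctttCTCTTCCggttctag
RPL35, chr9:124861943-124861967, - strand: cgcctacttcCTCTTTCCCTCggag
RPL11, chr1:23691796-23691820, + strand: gctccgctttCTCTTCCTgctctcc
RPL38, chr17:74203668-74203692, + strand: aagtctcgttCTTTTTCgtcctttt
RPS29, chr14:49598696-49598720, - strand: agcgcgcagctggcagcggtggttg
RPS15, chr19:1438386-1438410, + strand: aggcgcggacCaaagcgatctcttc
RPL36AL, chr14:49620612-49620636, - strand: tcttccctttCCTgttaggcgagag
RPL10L, chr14:46651767-46651791, - strand: gtagttaagagagcgcattttgact
The runs of RPS19, RPL21, RPL29, RPL35, RPL11 and RPL38 are 5 bases or longer, whichever line or group held more of the mRNA. RPS15 and RPL36AL begin with a C whose run is shorter than 5 bases, and RPS29 and RPL10L do not begin with C at the annotated start. The absence of the run says only that these letters are not at that position.

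The libraries held 12161091 to 22179601 expected counts. All 10 prostate epithelium markers reached a TPM (a level corrected for transcript length and scaled to the same total in each library) of 1 in every library, with a summed TPM of 4968 to 5405 in LNCaP and 1979 to 2652 in 22Rv1. The 4 immune, 4 stromal and 2 endothelial markers summed to at most 6.02, 49.2 and 1.89 TPM. Among the 22Rv1 libraries, those of replicate 3 stood apart over all genes. With piR-4447944 mimic, the chi-square statistic per gene was 115 and 118 between replicate 3 and replicates 1 and 2, which differed by 7.55. With NC-mimic it was 48.7 and 41.4, against 8.80 between replicates 1 and 2, and in LNCaP no pair exceeded 16.5. Over the members alone, which are abundant, the NC-mimic pairs gave 84.3, 87.4 and 236 in LNCaP and 40.8, 106 and 70.2 in 22Rv1. The mimic pairs gave 9.41 to 35.7 in LNCaP and 34.7 to 427 in 22Rv1. The 22Rv1 mimic library of replicate 3 had 2.23% of its expected counts in mitochondrially encoded genes, against 4.24% to 5.37% in the other libraries, and each library was left out in turn to measure its part in the results.

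The members together took between 5.44% and 6.85% of the expected counts of a library, and between 18.7% and 23.2% of its TPM, since their transcripts are short. In LNCaP with NC-mimic the share of expected counts was 6.04%, 5.94% and 6.62% in the 3 libraries, and with piR-4447944 mimic it was 6.25%, 6.34% and 6.64%. In 22Rv1 it was 5.73%, 6.05% and 6.13% with NC-mimic and 5.62%, 5.44% and 6.85% with piR-4447944 mimic. The shares of both transfections overlapped in each line, and the highest value of all 12 libraries was that of the 22Rv1 mimic library of replicate 3. A bulk library cannot tell more cells with a given message from more of the message per cell.

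The 82 members fell into 79 abundant genes and 3 rare ones. The mean TPM of the 79 over the 12 libraries ran from 275 to 11017 with a median of 2443, and 65 of the members were among the 100 genes of highest mean TPM. The large subunit genes among the 79 (47 genes) had a median of 2458 TPM, and the 32 small subunit genes a median of 2404 TPM. The order of the 79 was alike in both lines, with a Spearman correlation of 0.859 across genes between the means with NC-mimic, a description over genes that share each library and are not independent replicates.

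RPS27, a zinc-finger protein of the small subunit, was the member with the highest TPM. It reached 8964 ± 418 TPM in LNCaP and 13000.4 ± 309 TPM in 22Rv1 with NC-mimic (SD, n = 3 each). RPS18, a protein of the small subunit head, followed with 5735 ± 527 TPM and 5713 ± 538 TPM. RPL41, the shortest of the ribosomal proteins, had 4882 ± 84.5 TPM and 5946 ± 271 TPM. RPL31 and RPL37A of the large subunit completed the highest 5 with means over all libraries of 5028 and 4671 TPM. Between RPS18, RPL41, RPL31 and RPL37A the order changed with the line, and only RPS27 was clear of the others in every library.

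The lowest of the 79 were paralogs or genes with roles outside the core of the ribosome. RPL22, an RNA-binding protein whose loss cells tolerate, had 297 ± 18.0 TPM in LNCaP and 507 ± 40.5 TPM in 22Rv1 with NC-mimic. RPL36AL, a paralog of RPL36A, had 466 ± 23.4 TPM and 294 ± 14.0 TPM. RPS27L, a paralog of RPS27 that p53 is known to induce, had 309.9 ± 63.6 TPM and 230.3 ± 17.6 TPM. RPL36AL and RPL22 thus stood in opposite order in the lines.

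The TPM of the shortest members leans on the length correction. Transcripts of the members were on average 305 to 2057 bases long with a median of 650 bases. RSEM divides by an effective length from which the fragment length has been taken off, and 3 members had a mean effective length under 100 bases: RPS29 (45.3 bases), RPS27 (86.1 bases) and RPS21 (93.9 bases). The difference between length and effective length in genes longer than 3000 bases, which follows the fragment length of a library, was 269 to 280 bases in LNCaP with NC-mimic and 263 to 266 bases with piR-4447944 mimic, with no overlap. In 22Rv1 it was 270 to 278 bases with NC-mimic and 256 to 276 bases with the mimic. The edgeR comparisons between groups were therefore made on counts and are shown as CPM, the counts scaled to a common library size, which do not use the length. Levels and the shares of paralog pairs below are given in TPM and do use it.

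Counting was not equally sharp for all members. RSEM gave whole counts in every library for 45 of the 82, while 37 had reads divided with other genes in at least 1 library. Rows of pseudogenes took 0.0381% to 0.0605% of the expected counts of a library. RPS2, a small subunit protein, had the highest share of its reads in such rows, with 43394 expected counts in 24 pseudogene rows over the 12 libraries against 432120 in its own row (9.13%). RPL39 had 0 expected counts in its 19 pseudogene rows. Strand is not given in the sources used here, so reads of a member and of a gene on the other strand of the same place cannot be told apart.

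The comparison of 22Rv1 with LNCaP under NC-mimic asked how the members differ between the lines when both had the control transfection in androgen-deprived medium. Of 81 members that passed the filter on low counts, 37 had an adjusted p under 0.05 (45.7%), 16 higher and 21 lower in 22Rv1, in a quasi-likelihood fit by edgeR with Benjamini-Hochberg adjusted p-values over 17497 genes. Among all genes tested, 58.4% passed the same test (30.9% higher and 27.5% lower), so the share of members called was below that of genes at large. The changes were small. Only 2 members exceeded a log2 fold change of 1, against 34.5% of all genes (19.1% higher and 15.4% lower). Both had 0 counts in 1 line and passed the filter only through the other. Most members are far more abundant than other genes, so these shares compare genes of unlike level. The median log2 fold change of the members was -0.09, beside 0.01 for all genes. Of the large subunit genes, 9 were called higher and 16 lower among 49 tested, and of the small subunit genes 7 were called higher and 5 lower among 32. Without the 22Rv1 NC-mimic library of replicate 3, 48 members were called, of 66.2% of all genes, and leaving out any other library gave 29 to 37, of 46.9% to 53.8% of all genes.

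The 2 members beyond that limit were RPL39L and RPL10L, each detected in 1 line and at 0 counts in the other. RPL39L, a paralog of RPL39 on chromosome 3 (hg38, 187120948 to 187180908, minus strand, 3 exons), had 343, 298 and 236 expected counts in the 22Rv1 NC-mimic libraries and 331, 320 and 131 in the mimic libraries. It had 0 in all 6 LNCaP libraries. Set against a floor of 3 counts over the 3 libraries of the group, RPL39L was at least 325-fold higher in 22Rv1 than in LNCaP with NC-mimic and at least 263-fold higher with piR-4447944 mimic. Its level was 43.6, 52.3 and 52.5 TPM in the NC-mimic libraries, which was 1.51 ± 0.195% (SD, n = 3) of the TPM of RPL39 and RPL39L together. In CPM, without the length correction, the means in 22Rv1 with NC-mimic were 18.0 for RPL39L and 305 for RPL39. The bounds on the fold cover counting error only.

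RPL10L went the other way. It is an intronless copy of RPL10 on chromosome 14 (hg38, 46651010 to 46651781, minus strand, 1 exon), and it had 141, 138 and 119 expected counts in the LNCaP NC-mimic libraries and 80, 116 and 112 in the mimic libraries. It had 0 in all 6 22Rv1 libraries. By the same floor it was at least 119-fold higher in LNCaP than in 22Rv1 with NC-mimic and at least 102-fold higher with piR-4447944 mimic. It reached 19.4, 18.7 and 18.6 TPM in LNCaP with NC-mimic, or 0.854 ± 0.00987% of RPL10 and RPL10L together. All its counts were whole, and the X-linked RPL10 itself had 751 CPM in LNCaP and 1058 CPM in 22Rv1, a log2 fold change of 0.48 (SE 0.10, adjusted p = 0.00297, edgeR).

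RPL3L, the muscle paralog of RPL3, was near 0 in both lines. Its libraries held between 0 and 16 expected counts, or at most 0.71 TPM, and the groups overlapped. The 2 remaining paralogs were abundant in both lines. RPL36AL made up 23.3 ± 0.768% of the TPM of RPL36A and RPL36AL together in LNCaP and 18.8 ± 2.26% in 22Rv1 with NC-mimic. RPS27L made up 3.34 ± 0.607% of RPS27 and RPS27L together in LNCaP and 1.74 ± 0.114% in 22Rv1. These shares in TPM lean on the length correction, RPS27 having a short effective length. In CPM the means with NC-mimic were 108 in LNCaP and 82.5 in 22Rv1 for RPS27L. For RPS27 they were 563 and 858 CPM.

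**Figure D1:**
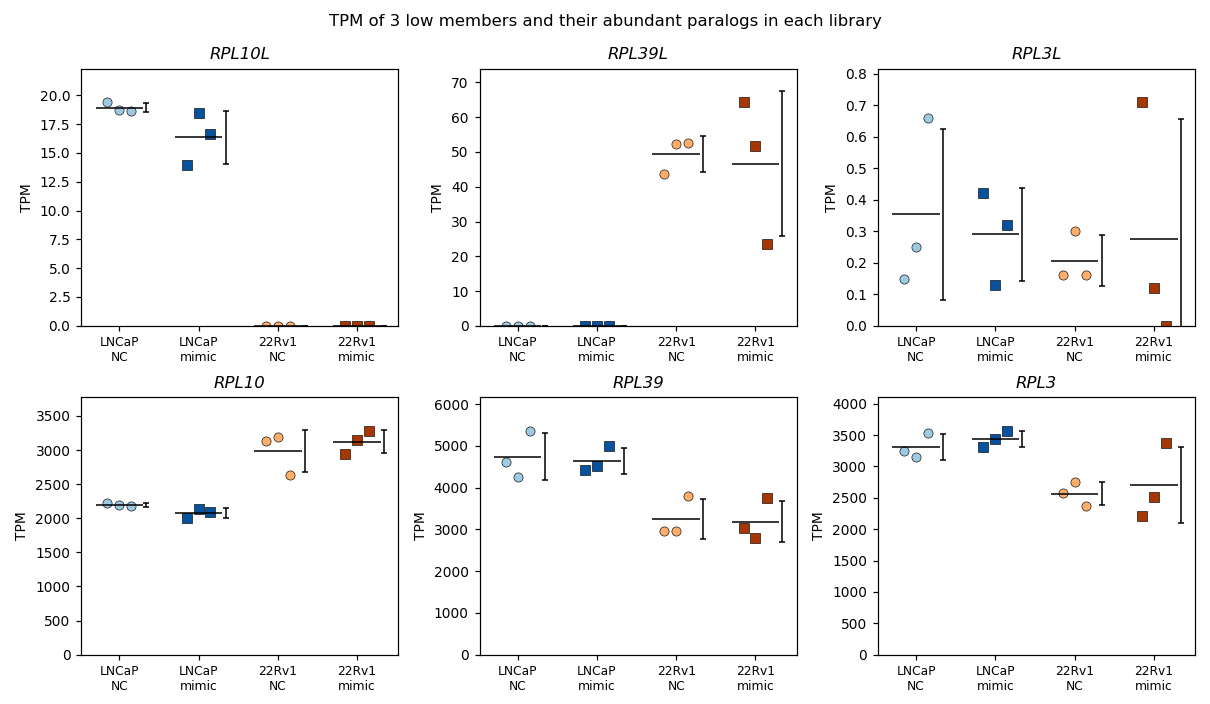
TPM of RPL10L, RPL39L and RPL3L (top) and of RPL10, RPL39 and RPL3 (bottom) in each of the 12 libraries; horizontal lines are group means and error bars SD (n = 3). RPL10L is at 0 in the 6 22Rv1 libraries, RPL39L is at 0 in the 6 LNCaP libraries, and RPL3L stays at or below 0.71 TPM.

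Among the abundant members, RPS19 had the largest difference between the lines. RPS19 belongs to the small subunit head, is needed to mature its RNA and is the gene most often mutated in Diamond-Blackfan anemia. It stood at 384, 379 and 424 CPM in the LNCaP NC-mimic libraries and at 745, 781 and 788 CPM in those of 22Rv1. The groups did not overlap, and the log2 fold change was 0.95 (SE 0.09, adjusted p = 4.79e-05, edgeR). RPL21, a large subunit protein, had 283, 286 and 276 CPM in LNCaP and 522, 531 and 521 CPM in 22Rv1, again without overlap. Its log2 fold change was 0.89 (SE 0.08, adjusted p = 4.15e-05, edgeR), and 2.27% of the reads assigned to RPL21 and its 72 pseudogene rows lay in the latter.

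RPL18, RPS27A and RPS27 followed with log2 fold changes of 0.70, 0.62 and 0.60. RPS27A is made as a fusion with ubiquitin, which is cut off to give the ribosomal protein. RPL11 and RPL5, which form a complex with 5S rRNA that binds MDM2 when assembly of ribosomes fails, were both higher in 22Rv1. Their log2 fold changes were 0.58 (adjusted p = 0.00279) and 0.43 (adjusted p = 0.00312, edgeR).

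On the other side stood large subunit genes. RPL35, which lies at the mouth of the exit tunnel, had 483, 395 and 612 CPM in LNCaP and 295, 298 and 315 CPM in 22Rv1 with NC-mimic. The log2 fold change was -0.72 (SE 0.15, adjusted p = 0.00364, edgeR), and the LNCaP libraries spread widely. RPL29, a heparin-binding protein of the large subunit, had 1021, 935 and 1123 CPM in LNCaP and 601, 634 and 644 CPM in 22Rv1. Its log2 fold change was -0.72 (SE 0.09, adjusted p = 0.000329, edgeR). RPL13A, RPL36AL and RPL17 followed with -0.66, -0.61 and -0.53. None of these 5 genes overlapped between the lines, which follows largely from their choice as the most negative called genes among the abundant members. The lack of overlap in RPS19 and RPL21 follows likewise from their choice as the most positive. RPL17 overlaps the read-through gene RPL17-C18orf32, and its counts were divided in all 12 libraries.

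Genes of the stalk, the arm of the large subunit that binds translation factors, did not move together. RPLP0, the base of the stalk, had a log2 fold change of 0.03 (adjusted p = 0.814). RPLP1 was lower in 22Rv1 by -0.45 (adjusted p = 0.0140) and RPLP2, its partner, was higher by 0.40 (adjusted p = 0.00451, edgeR for all). RPL22 was higher by 0.55 and RPL41 by 0.36, with adjusted p of 0.000909 and 0.00517 by edgeR. RPS6, the small subunit protein that S6 kinase phosphorylates, had a value of -0.21 that missed the threshold (adjusted p = 0.0514, edgeR), and RPSA, the laminin receptor precursor, had 0.07 (adjusted p = 0.541, edgeR).

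Related genes outside the symbol rule also differed in both directions. The counts below stand beside 58.4% of all genes called in this comparison, 30.9% higher and 27.5% lower. Of 6 other ribosomal genes, 4 were called, 1 higher and 3 lower. FAU, whose product is cut to give a ubiquitin-like protein and eS30, was higher in 22Rv1 by 0.36 (adjusted p = 0.00829, edgeR), and RPL22L1, the paralog of RPL22, was lower by -1.14 (adjusted p = 0.000144, edgeR), opposite in sign to RPL22. RACK1, a scaffold on the small subunit, had -0.29 (adjusted p = 0.0250, edgeR). Translation factors and other genes with a TOP motif gave 5 higher and 6 lower of 20 tested, from EIF2S3 at -1.23 to VIM at 2.89. Host genes of small nucleolar RNAs gave 7 higher and 2 lower of 13, with SNHG5 at 3.08 and SNHG16 at -0.49. Ribosome biogenesis factors gave 10 higher and 4 lower of 32, with RIOK1 at 1.41 and NOP10 at -0.82, and RNA polymerase I and III genes 4 higher and 4 lower of 16, with MAF1 at 0.93 and BRF1 at -0.78. Of 14 genes of the mTORC1 and S6 kinase pathway, 1 was higher (RHEB at 0.95) and 5 were lower, PDCD4 furthest at -1.11. The 78 genes of the mitochondrial ribosome gave 23 higher and 13 lower, between MRPL40 at -0.88 and MRPL43 at 1.18.

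The mean length of a member's transcripts, which RSEM weights by isoform, was within 5% between the lines for 71 of the 79 abundant members. The furthest, singled out after the values were seen, was RPL37, a zinc-finger protein of the large subunit. Its mean transcript length was 593, 596 and 579.8 bases in the LNCaP NC-mimic libraries and 756, 748 and 727 bases in those of 22Rv1, 26.1% longer, with no overlap. The LNCaP mimic libraries gave 572 to 582 bases and the 22Rv1 mimic libraries 692 to 741 bases. RPL22 was 14.1% shorter in 22Rv1. For RPL37 the size of the difference then depended on the scale, with a mean of 389 CPM in LNCaP and 367 CPM in 22Rv1 (overlapping) but 1616 and 974.7 TPM (not overlapping).

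The next comparison asked what piR-4447944 mimic changed in LNCaP. RPS29, RPL38, RPL37 and RPL11 were the 4 members called higher, none was called lower, and 80 were tested, which is 5% of them. Called means an unadjusted p under 0.05 and a log2 fold change beyond 0.2 in either direction. The study used these limits on DESeq2 fold changes that had been shrunk, whereas here they apply to edgeR values that were not. Among all 16244 genes tested 2.22% met it (1.38% higher and 0.843% lower). No member and no gene passed an adjusted p of 0.05 by edgeR, where 5 members, all higher, had an unadjusted p under 0.05 (2.67% of all genes, 1.54% higher and 1.13% lower), and DESeq2 with shrunken fold changes called 0 members (0.00688% of all genes). The median log2 fold change of the members was 0.05 beside -0.003 for all genes. Of the 80 members 60 were positive, and of all genes 7958 were positive and 8286 negative. The median of the members lay between 0.02 and 0.08 over the libraries left out (51 to 67 positive). On log2(TPM + 1) it was 0.013 with 46 positive. Members share each library and are not replicates. Their median log2 CPM varied between the libraries of a LNCaP group with a pooled SD of 0.061. Relative to the NC-mimic mean, the abundant members had a median deviation of 0.077 in NC-mimic replicate 3. In mimic replicates 1 and 2 it was 0.021 and 0.029.

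RPL38, a small protein at the edge of the large subunit known for a role in the translation of Hox messages, was the member with the smallest p. It had 179, 182 and 189 CPM with NC-mimic and 216, 210.1 and 228 CPM with the mimic, without overlap. The log2 fold change was 0.25 (SE 0.06, unadjusted p = 0.00165, adjusted p = 0.999, edgeR). RPS29, a zinc-finger protein of the small subunit, had 133, 109 and 149.8 CPM with NC-mimic and 158, 150.4 and 179 CPM with the mimic. These did not overlap by a narrow margin, with a log2 fold change of 0.31 (SE 0.10, unadjusted p = 0.00989, adjusted p = 0.999, edgeR). On the TPM scale the RPS29 libraries did overlap, at 3778, 2712 and 4390 TPM with NC-mimic and 4018, 3904 and 4286 TPM with the mimic.

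RPL37 had 385, 325 and 455.5 CPM with NC-mimic and 419, 455.6 and 502 CPM with the mimic, and the groups overlapped. Its log2 fold change was 0.24 (SE 0.10, unadjusted p = 0.0392, adjusted p = 0.999, edgeR). RPL11 had 366, 311 and 382 CPM with NC-mimic and 398, 401 and 426 CPM with the mimic, with no overlap and a log2 fold change of 0.21 (SE 0.08, unadjusted p = 0.0174, adjusted p = 0.999, edgeR). RPS27, at 0.17, had an unadjusted p of 0.0269 by edgeR and did not reach the fold limit. An exact two-sided permutation test of 3 against 3 libraries cannot go below 0.1, which RPL38, RPS29, RPL11 and RPS27 each reached on CPM. So did RPL10 in the other direction, with means of 751 CPM with NC-mimic and 722 CPM with the mimic. The test was run on named members only, and the share of all genes that reach 0.1 was not computed. RPL38, RPS29 and RPL11 had already been called by edgeR on the same libraries, so it is no separate support for them.

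The calls moved with the library left out. Without the LNCaP NC-mimic library of replicate 3, 12 members were called higher (6.05% of all genes called), and without the mimic library of replicate 3 only RPL38 was (2.89%). On log2(TPM + 1), which uses the length correction, limma called RPL38 alone. The fragment length measure above separated the same groups, and the 20 shortest of the 79 abundant members had a median log2 fold change of 0.07, with 17 positive, beside 0.05 for the other 59, with 43 positive. The part of fragment length in these differences was not tested.

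**Figure D2:**
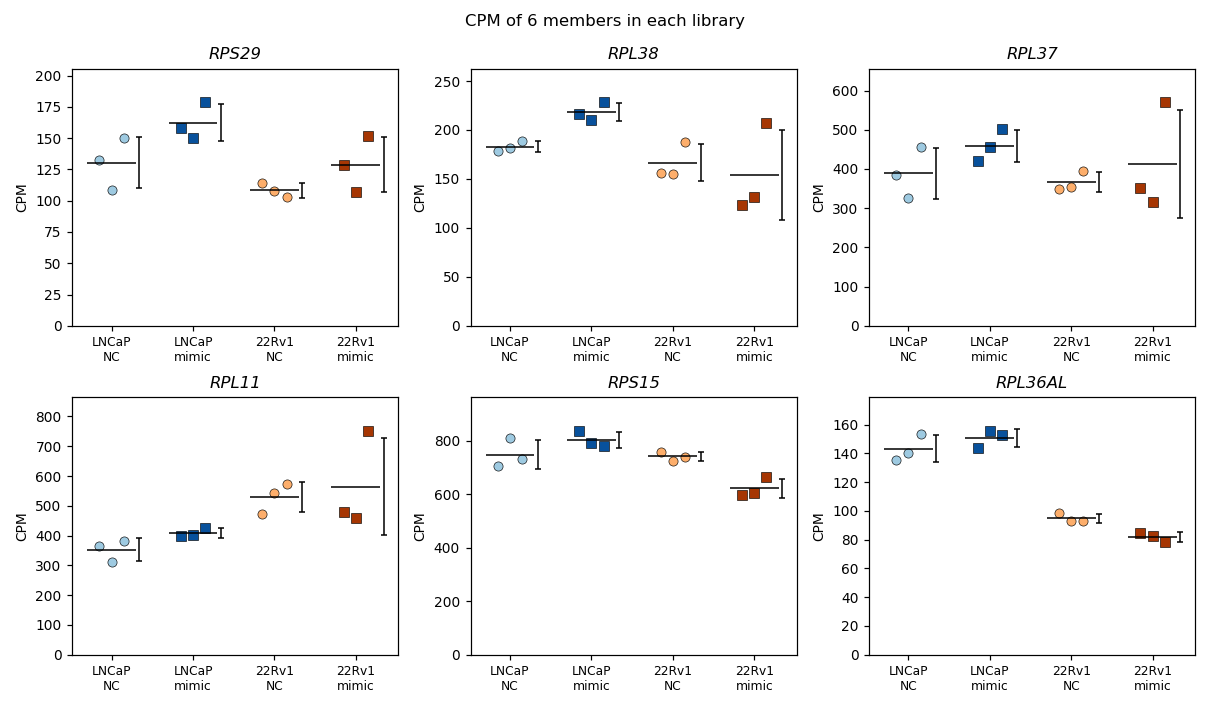
CPM of RPS29, RPL38, RPL37, RPL11, RPS15 and RPL36AL in each library; horizontal lines are group means and error bars SD (n = 3). In LNCaP the mimic libraries of RPS29, RPL38 and RPL11 lie above those with NC-mimic, and in 22Rv1 those of RPS15 and RPL36AL lie below.

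The related genes held few calls in LNCaP, where 2.22% of all genes were called. Of 15 mitochondrially encoded genes tested, 2 were called higher, though 11 had a negative log2 fold change. Of the 78 genes of the mitochondrial ribosome, 1 was called higher. None of the 6 ribosomal genes outside the rule, 20 translation factors and TOP genes, 13 small nucleolar RNA hosts or 14 mTORC1 pathway genes was called. GAR1, a protein of box H/ACA particles, was the only one of 32 biogenesis factors (0.29, unadjusted p = 0.0311), and TAF1A, of the polymerase I selectivity factor, the only one of 16 polymerase genes (-0.45, unadjusted p = 0.0438, edgeR).

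In 22Rv1 the mimic gave 0 called members of 80, where 1.48% of all 16898 genes tested were called (0.799% higher and 0.681% lower). This fit had little power. Its biological coefficient of variation, the spread between libraries beyond counting error, was 0.343, against 0.0964 in LNCaP. On simulated data it found 0 of 200 genes changed 2-fold at an adjusted p under 0.05. The lack of calls therefore does not show that the members were unchanged. No member had an unadjusted p under 0.05 by edgeR, 1.48% of all genes did, and DESeq2 also called 0. Of all genes tested, 8335 had a positive and 8563 a negative log2 fold change. The median of the members was -0.03, beside -0.005 for all genes, with 27 members positive and 53 negative. This median lay between -0.13 and 0.03 over the libraries left out. On log2(TPM + 1) it turned to 0.016, beside 0.051 for all genes, with 50 members positive and 30 negative. RPS15, a protein of the small subunit head, came closest. It had 759, 725 and 739.7 CPM with NC-mimic and 596, 605 and 664 CPM with the mimic, which did not overlap, for a log2 fold change of -0.26 (SE 0.11, unadjusted p = 0.0532, adjusted p = 0.999, edgeR). RPL36AL had 98.7, 92.9 and 92.8 CPM with NC-mimic and 84.7, 82.6 and 78.3 CPM with the mimic, for a log2 fold change of -0.22 (SE 0.11, unadjusted p = 0.0960, adjusted p = 0.999, edgeR).

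The 3 mimic libraries of 22Rv1 disagreed over the family. Relative to their NC-mimic mean, the 79 abundant members had a median deviation of -0.11 in log2 CPM in mimic replicate 1 and -0.16 in replicate 2, with 12 and 1 members above that mean. In replicate 3 the median was 0.21, with 70 of 79 above. The NC-mimic libraries themselves lay between -0.05 and 0.04. In LNCaP all 6 libraries lay between -0.04 and 0.09, and the mimic library of replicate 3 was the highest there. The spread is visible gene by gene, with a median coefficient of variation of 14.8% among the 22Rv1 mimic libraries against 5.60% among those with NC-mimic and 4.03% between mimic replicates 1 and 2. In LNCaP it was 6.80% with NC-mimic and 3.78% with the mimic.

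The labels do not say that libraries of the same number belong together, so differences by number only describe single libraries, which all members share. Set against the NC-mimic library of the same number, the members were lower by a median of -0.06 in replicate 1 of 22Rv1 (54 of 79 lower). They were lower by -0.17 in replicate 2 (79 of 79 lower), and higher by 0.14 in replicate 3 (67 of 79 higher). RPS19 shows the pattern, with 745, 781 and 788 CPM with NC-mimic and 724, 701 and 1043 CPM with the mimic. RPL11 followed it in replicates 2 and 3 only, with 474, 543 and 572 CPM with NC-mimic and 480, 459 and 751 CPM with the mimic. RPL39L was lowest in mimic replicate 3, with 8.48 CPM there against 22.7 and 17.8 CPM in the others.

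Without mimic replicate 3, 8 members were called lower (2.16% of all genes called) and the median was -0.13. They were RPL38 at -0.38, RPL18 at -0.31, RPS15 at -0.30, RPS3 at -0.26, RPL5 at -0.24, RPS4X at -0.21, RPL19 at -0.21 and RPL6 at -0.20, with a smallest adjusted p of 0.979 by edgeR. Without both 22Rv1 libraries of replicate 3, a setting chosen after the data were seen, 8 were called lower (4.57%), with RPL3 and RPS6 in place of RPS4X and RPL6. The smallest adjusted p of a member was then 0.456 by edgeR. RPL38, RPL18, RPS15, RPS3, RPL5 and RPL19 were called in both settings. Both settings use replicates 1 and 2 of each group, so this is not independent support. The part that the share of mitochondrial counts has in this was not tested.

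The related genes in 22Rv1 gave no call either among ribosomal genes outside the rule, translation factors and TOP genes, biogenesis factors, polymerase genes, small nucleolar RNA hosts and mTORC1 pathway genes. All 32 biogenesis factors had a negative log2 fold change with a median of -0.25, and the 78 mitochondrial ribosomal genes had a median of -0.18, with 71 negative. Of 15 mitochondrially encoded genes tested, 14 were negative with a median of -0.49 and 2 were called lower, and 2 of the 10 prostate epithelium markers were called lower. These values include the mimic library of replicate 3. The cytosolic members had a median of -0.03.

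Last, the effects of the mimic in the lines were compared by an interaction term over all 12 libraries. RPS15 and RPL36AL were called of 81 members tested (2.47%), both lower in 22Rv1, where 3.26% of all 18720 genes tested were called (1.71% higher and 1.54% lower). For RPS15 the log2 fold change was 0.10 in LNCaP and -0.26 in 22Rv1, a difference of -0.35 (SE 0.12, unadjusted p = 0.0123). For RPL36AL it was 0.07 and -0.22, a difference of -0.28 (SE 0.12, unadjusted p = 0.0328). Neither passed adjustment (adjusted p near 1 for both, edgeR). RPL38 had the most negative difference, -0.36, with an unadjusted p of 0.150 by edgeR. With the replicate number as a block, 3 members were called, RPL38 being added at -0.40 (unadjusted p = 0.0232, edgeR). Without 22Rv1 mimic replicate 3, 15 members were called, all lower (4.78% of all genes), and RPL38 stood at -0.64 (unadjusted p = 0.000333, edgeR). The smallest adjusted p of a member was 0.886 with the block and 0.922 without that library, by edgeR. No member passed adjustment in either setting.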

How the data were processed

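LNCaP and 22Rv1 cells were profiled by mRNA sequencing, with 4 groups of 3 libraries. The authors aligned reads to hg38 with STAR 2.7.1a and deposited, per library, the RSEM 1.3.0 expected count of every gene, which is not normalized and can be divided between genes, and its TPM, with a joined TPM table of equal values; DESeq2 1.34.0 in R 4.1.1 is named for their tests. The annotation, strand and read length are not given in the sources used here. 0 columns of samples were left unused.

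After rounding to whole numbers, the expected counts of all genes entered quasi-likelihood fits of edgeR 4.0.16 under R 4.3.3 (TMM, filterByExpr), and CPM are these counts scaled to a common TMM library size. DESeq2 1.42.0 (fold changes shrunk as in the study, except for the interaction) and limma 3.58.1 on log2(TPM + 1), after a TPM filter, were alternatives, as were other scalings and low-count filters, pseudogene counts added to the members, a fit of all libraries, a replicate block and leaving out each library. Called means an unadjusted p under 0.05 with an absolute log2 fold change over 0.2 for the mimic, and an adjusted p under 0.05 between lines. Exact permutation tests used SciPy 1.17.1. Precision is limited by totals of 12161091 to 22179601 expected counts and, for the abundant members, by the spread between the 3 libraries of a group. Floors and intervals cover counting error only. The test was also run on simulated data with 200 genes changed 2-fold. At an adjusted p under 0.05 it found 156 in the LNCaP comparison, 0 in the 22Rv1 comparison and 105 between lines. It also called 18, 0 and 6 unchanged genes in these comparisons.

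All 82 members were found in GENCODE 44 by identifier, and promoters came from RefSeq. The members and gene lists were chosen with earlier results of these data known. Genes were named by rule: up to 10 called members per mimic comparison, the 6 highest and 6 lowest between lines, the 5 highest and 5 lowest by TPM, 5 paralog pairs, the stalk genes and a few with known roles, the extremes called in each related list, and the extremes in pseudogene reads. Replicate numbers were checked for pairing by correlating, across genes, the deviations of libraries from their group means. Same-numbered 22Rv1 libraries gave 0.198, 0.167 and 0.355. There, NC-mimic 1 with mimic 2 gave 0.191 and NC-mimic 2 with mimic 1 gave 0.117. The values thus set replicate 3 apart but do not show which libraries of replicates 1 and 2 belong together. Same-numbered LNCaP libraries gave 0.0211, 0.00504 and 0.189. The main fits used no pairing, and the replicate block was an alternative only.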

Additional observations from a re-analysis of the deposited data

Results flagged for a closer look

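For a difference between the lines in the effect of piR-4447944 mimic, the interaction term of the edgeR fit was used. It called 2 of 81 members tested (2.47%), a lower share than that of all genes. The call rule was an unadjusted p under 0.05 and a log2 fold change beyond 0.2 in either direction. For RPS15 the difference in log2 fold change, 22Rv1 minus LNCaP, was -0.35 (unadjusted p = 0.0123), and for RPL36AL it was -0.28 (unadjusted p = 0.0328). Neither held after adjustment over all genes (adjusted p near 1), and 3.26% of all genes were called by the same rule.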

How the results depend on the processing

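Members called with the mimic rested on unadjusted p, and each group had 3 libraries. The share of all genes called under the same setting follows each count in parentheses. Between lines, 29 to 48 members were called over the libraries left out (46.9% to 66.2%), and a log2 fold limit of 1 left 2 (34.5%). In LNCaP the 4 calls became 0 with DESeq2 (0.00688%), 1 in a fit of all 12 libraries (0.897%), 1 with limma on log2(TPM + 1) (4.20%), 1 on log2(TPM + 0.1) (4.09%), and 1 to 12 over the libraries left out (1.72% to 6.05%). With no low-count filter, RPS29 was the only member among 46 genes with an adjusted p under 0.05 (0.0489, edgeR). In 22Rv1 the 0 calls became 2 in the fit of all 12 libraries (RPS15 and RPL36AL, 6.58%), 8 without both libraries of replicate 3 (4.57%), a setting chosen after seeing the data, and 0 to 8 over single libraries (1.03% to 2.16%). The 2 calls of the interaction became 1 with no low-count filter (3.17%), 0 with either limma fit (3.96% and 4.12%), 16 without both 22Rv1 libraries of replicate 3 (6.21%), and 1 to 15 over single libraries (2.09% to 5.38%). Its median of -0.07 ranged from -0.19 to 0.0082 over single libraries. Without mitochondrial genes in the total, the mean share of the members was 6.51% in LNCaP with NC-mimic, 6.71% in LNCaP with mimic, 6.29% in 22Rv1 with NC-mimic and 6.21% in 22Rv1 with mimic. In each case the cause was not tested. RPL10L and RPL39L gave no value where at least 10 counts were required in every library.

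With the replicate block the calls were 4 in LNCaP (3.13%), 0 in 22Rv1 (2.49%), 3 in the interaction (4.55%, RPL38 added, unadjusted p = 0.0232, edgeR) and 36 between lines (55.5%). The smallest adjusted p of a member in that interaction was 0.886 by edgeR.

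Signs of some single members turned. In 22Rv1, leaving out single libraries gave RPL11 -0.17 to 0.20, RPL38 -0.38 to 0.0045 and RPL37 -0.13 to 0.31, and leaving out both libraries of replicate 3 gave RPL11 -0.11 and RPL37 -0.071. In the interaction, single libraries gave RPL11 -0.39 to 0.0016, RPL37 -0.38 to 0.083 and RPS29 -0.20 to 0.051.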
